A study of Mus musculus with 9 samples.

Results

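Transcript levels of 8 Krüppel-like factor (KLF) genes were examined in sorted splenic B cells. Klf2, Klf3, Klf4, Klf6, Klf7, Klf9, Klf10 and Klf13 were taken by gene symbol from 24346 listed genes, and each was found once in all 9 libraries. KLF proteins are transcription factors that bind GC-rich and CACCC sequences through zinc fingers at the C-terminal end, and the rest of the protein decides whether a member activates or represses. Klf2 is known for keeping lymphocytes quiescent and for controlling their homing, and Klf4 for restraining B cell division. Klf3 represses through the corepressor CtBP, whereas Klf9, Klf10 and Klf13 recruit Sin3A.

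B cells were sorted from spleens of wild-type C57BL6 mice, with no transgene or treatment in any group. FO B (Young) were follicular (FO) B cells of 8-week-old mice, FO B (Aged) were FO B cells of 50-week-old mice, and ABCs (Aged) were age-associated B cells (ABCs) of 50-week-old mice, with 3 libraries in each group. The markers of the FO B gate included B220hiCD43-CD23+CD21lo, and those of the ABC gate B220hiCD43-CD23-CD21loCD11b+CD11c+. The labels do not tell whether both aged populations came from the same mice, and p-values measure the spread between these libraries. Levels are FPKM (reads per transcript length and per library depth), and differences are given as log2(FPKM + 1) from limma, with FDR for Benjamini-Hochberg adjusted p-values over all genes tested. This scale understates the change of low genes. A gene was called at an FDR under 0.05.

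Libraries held approximately 7280000 to 8860000 mapped reads, as estimated from the value of 1 read, and 10032 to 10445 genes reached 1 FPKM. The defining B cell genes Cd79a and Ms4a1 were at 793 FPKM or more in every library. Itgax, which encodes CD11c of the ABC gate, was at 45.0 to 59.7 FPKM in ABCs and at most at 0.206 FPKM in FO B cells. In ABCs, Fcer2a, which encodes CD23, was at 4.15, 6.95 and 0.464 FPKM, against 696.6 to 728 FPKM in FO B (Aged). ABCs (Aged) replicate 3 stood apart from the other ABC libraries with the lowest Fcer2a and the lowest Cr2, which encodes CD21 (0.745 FPKM against 4.93 and 8.39 FPKM). Results for KLF genes are therefore also given without it.

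In GENCODE M21 on GRCm38, all 8 genes are protein-coding and each lies on a chromosome of its own. The genes that passed the test between ABCs and FO B (Aged) are Klf2 (chr8:72319033-72321656, plus strand), Klf6 (chr13:5861482-5870394, plus strand), Klf7 (chr1:64029447-64122282, minus strand), Klf10 (chr15:38291463-38300706, minus strand) and Klf13 (chr7:63886351-63938915, minus strand). Promoters were read from RefSeq sequences on GRCm38.p6, which matched 7 of the 8 genes. Klf10 had no entry. The 250 bases upstream of the RefSeq start are shown for the 4 genes that passed the test and had an entry, since these are genes that differed between the same libraries in opposite directions. They span chr8:72318812-72319061 for Klf2, chr13:5861239-5861488 for Klf6, chr1:64121390-64121639 for Klf7 and chr7:63938916-63939165 for Klf13. The RefSeq and GENCODE starts differ for some genes, so that the window of Klf7 lies within its GENCODE span and those of Klf2 and Klf6 run a short way into theirs. Sequences run 5′ to 3′ on the strand of the gene, and capitals mark matches to the motifs searched on both strands.
Klf2: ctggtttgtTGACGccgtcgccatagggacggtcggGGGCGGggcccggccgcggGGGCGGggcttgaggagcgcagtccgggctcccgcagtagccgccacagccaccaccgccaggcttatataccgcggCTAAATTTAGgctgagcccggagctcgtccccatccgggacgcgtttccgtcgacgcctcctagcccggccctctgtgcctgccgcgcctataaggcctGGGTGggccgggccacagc
Klf6: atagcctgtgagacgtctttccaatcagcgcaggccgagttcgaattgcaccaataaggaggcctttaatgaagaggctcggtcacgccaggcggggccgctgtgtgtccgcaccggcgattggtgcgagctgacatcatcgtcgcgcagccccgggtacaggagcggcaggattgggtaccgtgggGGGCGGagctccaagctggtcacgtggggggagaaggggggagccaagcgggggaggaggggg
Klf7: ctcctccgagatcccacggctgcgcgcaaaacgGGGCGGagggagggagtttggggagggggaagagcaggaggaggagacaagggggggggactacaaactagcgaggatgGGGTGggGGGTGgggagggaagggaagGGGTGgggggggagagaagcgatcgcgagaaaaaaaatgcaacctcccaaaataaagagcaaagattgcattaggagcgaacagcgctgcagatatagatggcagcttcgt
Klf13: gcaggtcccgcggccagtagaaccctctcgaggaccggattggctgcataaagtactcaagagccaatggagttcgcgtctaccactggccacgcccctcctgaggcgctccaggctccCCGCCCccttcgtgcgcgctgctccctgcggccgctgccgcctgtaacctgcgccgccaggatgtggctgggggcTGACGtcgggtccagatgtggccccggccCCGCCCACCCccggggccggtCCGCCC
The motifs were CACCC, the GC box GGGCGG, the FOXO motif GTAAACA, the core promoter letters TATAAA, the cyclic AMP response core TGACG, the CArG box and the MEF2 motif. A CACCC was found in 52.0% of all 32851 promoter windows of this length, GGGCGG in 32.7%, TGACG in 17.8%, TATAAA in 12.4%, GTAAACA in 3.17%, the MEF2 motif in 2.92% and the CArG box in 1.47%. Klf2 held 1 MEF2 motif, which ends 109 bases upstream of the start, besides 2 GGGCGG, 1 CACCC and 1 TGACG. Klf6 held 1 GGGCGG and no other motif, Klf7 held 3 CACCC and 1 GGGCGG, and Klf13 held 3 GGGCGG, 1 CACCC that overlaps a GGGCGG, and 1 TGACG. Of the promoters not shown, Klf9 held the GTAAACA, Klf4 held 4 GGGCGG and 1 TGACG, and Klf3 held 6 GGGCGG and 5 CACCC. No CArG box or TATAAA was found in the 7 windows. These matches describe the letters and not bound sites.

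The order of KLF levels was the same in both FO B groups. Klf2 was followed by Klf3, Klf6, Klf13, Klf7, Klf10, Klf4 and Klf9, and neighbours in this order did not overlap between libraries of a group. In ABCs the order became Klf2, Klf3, Klf6, Klf10, Klf13, Klf4, Klf7 and Klf9, with overlap between Klf3 and Klf6 and between Klf4 and Klf7. FPKM divides by transcript length, so the place of a gene depends on the length used. For Klf7 the value of 1 read implied a transcript of approximately 1250 bases, whereas the longest annotated transcript has 7662 bases.

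**Figure D1:**
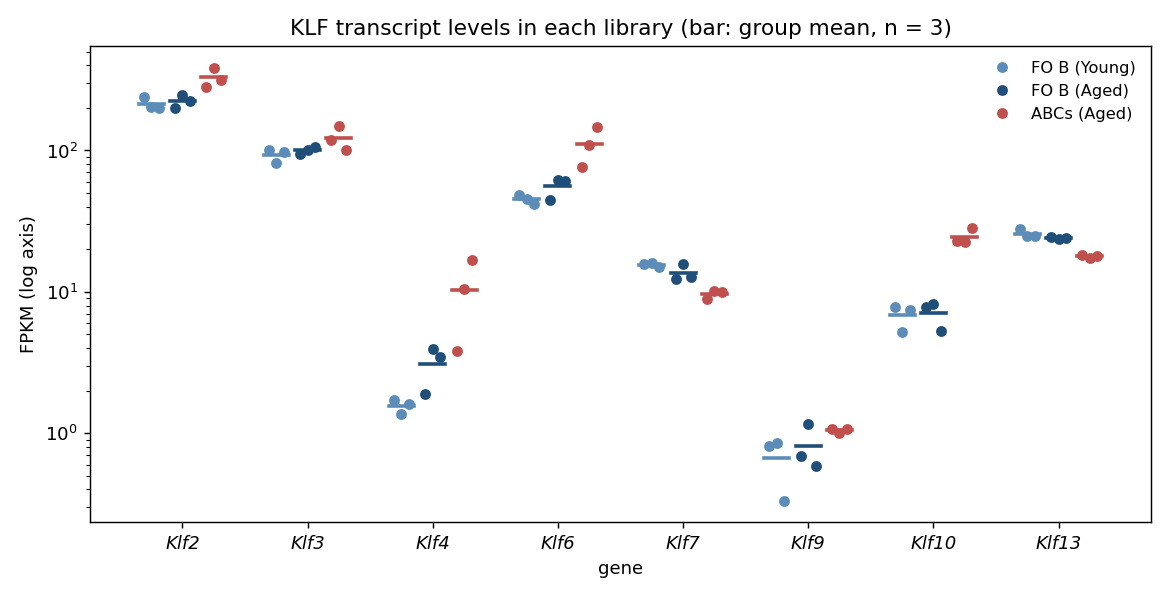
FPKM of the 8 KLF genes in each of the 9 libraries, on a log axis, with points for libraries and a bar for the mean of 3 libraries. Klf10 libraries lie between 22.4 and 28.5 FPKM in ABCs and between 5.24 and 8.24 FPKM in FO B cells, and Klf13 libraries of ABCs lie below all those of FO B cells.

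Between ABCs and FO B (Aged), Klf10, Klf6 and Klf2 were higher in ABCs, and Klf13 and Klf7 were lower. Thus 3 of the 7 KLF genes tested were called higher and 2 lower, while 19.4% of all 10412 genes were called higher and 16.5% lower. The 2 genes that missed the threshold were Klf3 and Klf4. Klf9 had a mean below 1 FPKM in these libraries and was not tested. Since RNA was taken from bulk sorted cells, a change in the number of cells that express a gene and a change in RNA per cell cannot be told apart. With no filter on low values, 1 gene (Klf10) was called higher and 1 (Klf13) lower, and without ABCs (Aged) replicate 3 the counts were 4, with Klf3 added, and 2.

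Klf2 was the most abundant KLF transcript. It was at 237, 204 and 201 FPKM in FO B (Young), 199.8, 247 and 223 FPKM in FO B (Aged), and 283, 386 and 318 FPKM in ABCs. No FO B library reached the lowest ABC library, while the FO B groups overlapped. Klf2 was 1.47 times as high in ABCs as in FO B (Aged), with means of 329 ± 52.2 and 223 ± 23.4 FPKM (SD, n = 3). The log2 difference was 0.55 (SE 0.128, limma FDR = 0.0142). This call was lost with no filter (limma FDR = 0.0987) and also when FO B (Aged) replicate 1 was left out (limma FDR = 0.0569), and it held without ABCs (Aged) replicate 3 (0.57, limma FDR = 0.0179). For groups of 3 libraries that do not overlap, the exact two-sided permutation test of the means gives p = 0.1, its smallest value.

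Of 9 lymphocyte trafficking genes linked to Klf2 by earlier knowledge, 8 were tested, 2 were higher in ABCs and 1 was lower, shares near those of all genes (19.4% and 16.5%), with a median log2 difference of -0.10, beside -0.01 over all genes. S1pr1, the sphingosine-1-phosphate receptor for egress from lymphoid organs, was at 272, 274 and 266 FPKM in ABCs and 183, 215 and 189.9 FPKM in FO B (Aged), a log2 difference of 0.47 (SE 0.074, limma FDR = 0.00304). On the log2 scale Itgb1, the integrin beta 1 chain, rose by 4.67 (limma FDR = 9.66e-06), and Cxcr5, the receptor that guides B cells into follicles, fell by 1.56 (limma FDR = 2.74e-05).

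Of 11 genes that act upstream of Klf2 and Klf4, 10 were tested, with a median log2 difference of 0.01. In ABCs 2 were higher and 3 were lower, beside 19.4% and 16.5% of all genes. Mapk7, which encodes the kinase ERK5, was at 14.9, 13.8 and 15.4 FPKM in ABCs and 9.40, 10.9 and 7.86 FPKM in FO B (Aged), a log2 difference of 0.60 (SE 0.13, limma FDR = 0.00928). Fbxw7, part of a ubiquitin ligase, rose by 0.61 (limma FDR = 0.00695). Among the genes called lower were Mef2c (log2 difference -0.45, limma FDR = 0.038) and Foxo1 (log2 difference -0.39, limma FDR = 0.026), transcription factors that were named after their values were seen. With no filter the calls of Mapk7 (limma FDR = 0.0528), Mef2c (limma FDR = 0.184) and Foxo1 (limma FDR = 0.122) were lost. The call of Foxo1 was also lost when FO B (Aged) replicate 1, 2 or 3 was left out (limma FDR = 0.0707, 0.0821 and 0.0643). The call of Mef2c was likewise lost there (limma FDR = 0.0953, 0.11 and 0.0833), without ABCs (Aged) replicate 1 or 2 (limma FDR = 0.0667 and 0.074) and without a trend (limma FDR = 0.0586). Of the other Mef2 genes of the list, Mef2a differed by 0.37 (limma FDR = 0.0566) and Mef2d by 0.20 (limma FDR = 0.125), and neither was called. The Klf2 promoter printed above holds a MEF2 motif, which was searched after the data were seen, and no GTAAACA. Whether any of these factors acts on Klf2 was not tested.

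Klf4, a low member in FO B cells, was uneven among ABC libraries, with a coefficient of variation of 62.7%. It was at 1.71, 1.36 and 1.60 FPKM in FO B (Young), 1.91, 3.96 and 3.45 FPKM in FO B (Aged), and 3.83, 10.4 and 16.8 FPKM in ABCs. The lowest ABC library lay below the highest library of FO B (Aged), and all ABC libraries lay above FO B (Young). These values rest on few reads, with 89, 268 and 394 reads in the ABC libraries and 44, 111 and 87 reads in FO B (Aged). The SD between ABC libraries was 10.1 times the counting SD, so that sampling of reads is a small part of this spread. Against FO B (Aged), Klf4 was 3.33 times as high by the means, with a log2 difference of 1.31 (95% interval 0.24 to 2.39, limma FDR = 0.0603), which missed the threshold. The FDR depended on the setting. It was 0.00654 without ABCs (Aged) replicate 1, 0.0262 with all 9 libraries in the fit, 0.109 without ABCs (Aged) replicate 3 and 0.277 with no filter, all from limma.

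Klf6, a factor induced by injury and growth signals, was at 48.4, 45.3 and 42.0 FPKM in FO B (Young), 45.0, 61.7 and 60.6 FPKM in FO B (Aged), and 76.4, 109 and 147 FPKM in ABCs. All ABC libraries were above all FO B libraries. The mean was 1.99 times that of FO B (Aged), 111 ± 35.1 against 55.8 ± 9.36 FPKM (SD, n = 3), with a log2 difference of 0.94 (SE 0.234, limma FDR = 0.0187). The call was lost with no filter (limma FDR = 0.134) and also when FO B (Aged) replicate 1 was left out (limma FDR = 0.0687). Without ABCs (Aged) replicate 3 the difference was 0.72 (limma FDR = 0.0206).

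Klf4 and Klf6 followed the same order of libraries among ABCs, with replicate 1 lowest and replicate 3 highest. Immediate-early genes, which respond to stimulation within minutes and also to cell dissociation, were therefore read in the same libraries. Of 17 such genes, 15 were tested, with a median log2 difference of 0.76. In ABCs 8 were higher than in FO B (Aged) and 1 was lower, beside 19.4% and 16.5% of all genes. The summed level of the 17 genes was 1140 to 1230 FPKM in FO B (Young), 1410, 1590 and 1610 FPKM in FO B (Aged), and 1970, 2720 and 3080 FPKM in ABCs. ABCs (Aged) replicate 1 had the lowest sum among ABCs and replicate 3 the highest, and FO B (Aged) replicate 1 had the lowest sum in its group, as it had the lowest Klf4 and Klf6. The highest sum of that group was in replicate 3, but its highest Klf4 and Klf6 (3.96 and 61.7 FPKM) were in replicate 2. In FO B (Young), replicate 2 had the lowest sum and the lowest Klf4 (1.36 FPKM), whereas the lowest Klf6 (42.0 FPKM) was in replicate 3. Fos rose by 2.10 (limma FDR = 0.002), Egr1 by 1.97 (limma FDR = 0.00219) and Egr2 by 1.60 (limma FDR = 0.00228) on the log2 scale. Egr3, the gene called lower, had a log2 difference of -1.17 (limma FDR = 0.00361). The part of this list in the Klf4 and Klf6 differences was not tested.

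**Figure D2:**
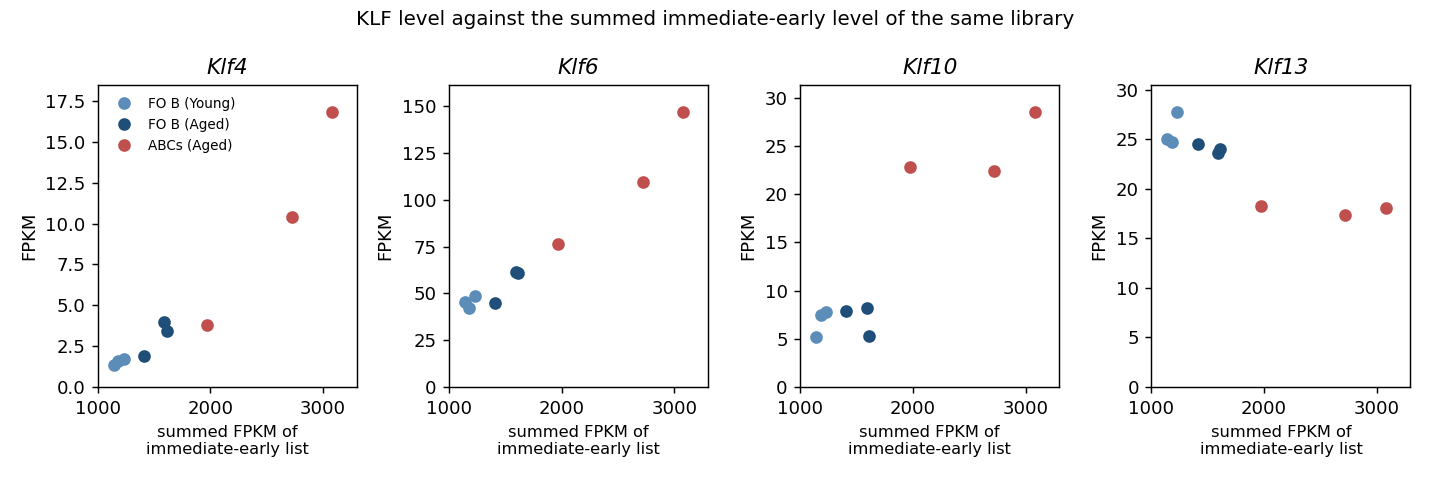
FPKM of Klf4, Klf6, Klf10 and Klf13 (y axes) against the summed FPKM of 17 immediate-early and dissociation genes in the same library (x axes), with 1 point per library. Klf4, Klf6 and Klf10 are highest in the ABC library with the highest sum (3080 FPKM), whereas Klf13 stays between 17.3 and 18.3 FPKM in all ABC libraries. Klf10 is at 28.5 FPKM there and at 22.8 and 22.4 FPKM in ABCs (Aged) replicates 1 and 2.

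Klf7, an activator known from neurons and fat cells, was lower in ABCs. It was at 15.8, 16.1 and 14.9 FPKM in FO B (Young), 12.4, 15.7 and 12.8 FPKM in FO B (Aged), and 8.89, 10.2 and 10.0 FPKM in ABCs. Every ABC library was below every FO B library. The mean was 0.713 times that of FO B (Aged), a log2 difference of -0.44 (SE 0.116, limma FDR = 0.0227). This modest difference missed the threshold with no filter (limma FDR = 0.0789), without ABCs (Aged) replicate 1 (0.073), and without FO B (Aged) replicate 2 (0.0639) or 3 (0.0507). It rests on 279 reads in ABCs and 415 reads in FO B (Aged), and the ratio of read rates was 0.709 (exact 95% interval 0.607 to 0.827, counting error only).

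Klf3, the CtBP-dependent repressor, was second in abundance. It was at 100.1, 81.1 and 97.1 FPKM in FO B (Young), 93.8, 101.4 and 106 FPKM in FO B (Aged), and 119, 149 and 100.99 FPKM in ABCs. ABCs (Aged) replicate 3 fell within the range of FO B (Aged), and the other ABC libraries were above it. The log2 difference was 0.27 (95% interval -0.05 to 0.59, limma FDR = 0.16), and the exact two-sided permutation test gave p = 0.3. Without ABCs (Aged) replicate 3 it was 0.40 (limma FDR = 0.023).

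Klf10, first described as a TGF-beta-inducible early gene, showed the largest relative rise among the members called. It was at 7.82, 5.24 and 7.44 FPKM in FO B (Young), 7.84, 8.24 and 5.29 FPKM in FO B (Aged), and 22.8, 22.4 and 28.5 FPKM in ABCs. The lowest ABC library was far above the highest FO B library. The mean was 3.45 times that of FO B (Aged), 24.5 ± 3.41 against 7.12 ± 1.60 FPKM (SD, n = 3), with a log2 difference of 1.67 (SE 0.171, limma FDR = 0.000477). The call held under all 15 alternatives, with an FDR between 9.04e-05 and 0.0147. Of the genes that reached 1 FPKM in the library, Klf10 ranked above 23.0% to 32.7% in FO B cells and above 61.1% to 66.6% in ABCs. Unlike the other members, Klf10 gave values that were not whole multiples of a common step, so its reads are not known.

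Of 11 TGF-beta pathway genes around Klf10 and Klf11, all were tested, with a median log2 difference of -0.28. In ABCs 0 were called higher and 3 lower (limma), beside 19.4% and 16.5% of all genes. An unadjusted p under 0.05 (limma) was given for 1 gene that was higher and 4 that were lower. Over all 10412 genes it was given for 4862, in both directions together. Smad4, the common mediator of the pathway, was at 7.35, 6.72 and 6.95 FPKM in ABCs and 31.0, 30.0 and 14.0 FPKM in FO B (Aged), a log2 difference of -1.62 (limma FDR = 0.00412). Smad4 was at 6.82 to 12.1 FPKM in FO B (Young), so that FO B (Aged) stood above both other groups. Smurf2, a ubiquitin ligase that acts on the receptors, fell by 0.56 (limma FDR = 0.0149), and the ligand Tgfb1 fell by 0.50 (limma FDR = 0.0485). Without FO B (Aged) replicate 1 the call of Smurf2 was lost (limma FDR = 0.0599). The call of Tgfb1 held in 8 of 15 alternatives, and was lost with no filter (limma FDR = 0.171), with a mean of at least 5 FPKM (0.0574), without any one FO B (Aged) library (0.0928 to 0.14), and without ABCs (Aged) replicate 1 (0.115) or 3 (0.0938).

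Klf13, an activator of Ccl5 in T cells that can also repress through Sin3A, was lower in ABCs. It was at 27.7, 25.02 and 24.7 FPKM in FO B (Young), 24.5, 23.6 and 24.0 FPKM in FO B (Aged), and 18.3, 17.3 and 18.0 FPKM in ABCs. The 3 groups did not overlap. The mean was 0.744 times that of FO B (Aged), 17.9 ± 0.486 against 24.0 ± 0.472 FPKM (SD, n = 3), with a log2 difference of -0.41 (SE 0.0711, limma FDR = 0.00457). The call held under all 15 alternatives. The SD between ABC libraries was 0.852 times the counting SD, so Klf13 varied no more than sampling of its 2827 reads would give.

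Klf9, a glucocorticoid-responsive member, was near the lower limit of these libraries. It was at 0.810, 0.857 and 0.334 FPKM in FO B (Young), 0.684, 1.16 and 0.589 FPKM in FO B (Aged), and 1.08, 1.01 and 1.07 FPKM in ABCs. The 2 aged groups overlapped, while all ABC libraries lay above FO B (Young). It had 82 reads over the ABC libraries and 68 over FO B (Aged), and the ratio of read rates was 1.27 with an exact 95% interval of 0.91 to 1.78, which covers counting error only. A difference between the aged groups was not detectable at this depth. Against FO B (Young), with 54 reads, the ratio was 1.58 with an interval of 1.1 to 2.26, again for counting error only.

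**Figure D3:**
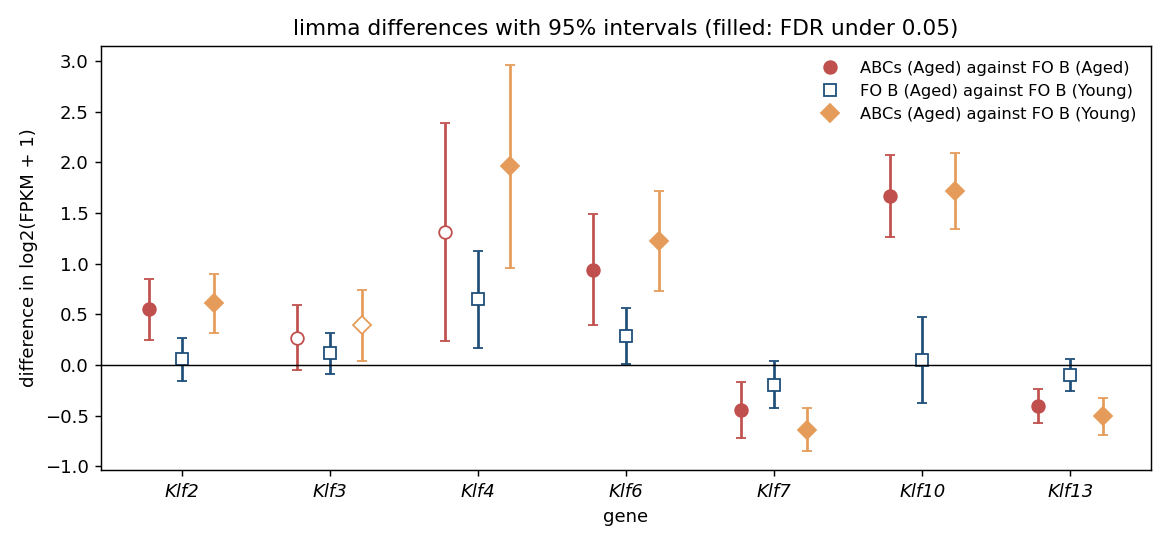
Differences in log2(FPKM + 1) with 95% intervals from limma for the 7 KLF genes tested, in the 3 comparisons of groups (n = 3 libraries each), with filled symbols for an FDR under 0.05. Klf10 differs by 1.67 and 1.71 between ABCs and the FO B groups and by 0.05 between the FO B groups, and no symbol is filled for FO B (Aged) against FO B (Young).

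Between FO B (Aged) and FO B (Young), 0 of the 7 KLF genes tested were called (limma), while 0.346% of all 10122 genes were called higher and 0.119% lower. An unadjusted p under 0.05 (limma) was given for 2 members, Klf4 and Klf6. Over all 10122 genes it was given for 1298, in both directions together. Klf4 was 2.0 times as high in aged mice by the means, 3.11 ± 1.07 against 1.56 ± 0.175 FPKM (SD, n = 3), with a log2 difference of 0.65 (95% interval 0.17 to 1.13, limma FDR = 0.242). The lowest aged library, at 1.91 FPKM, was above the highest young one, at 1.71 FPKM (exact two-sided permutation test, p = 0.1). Klf6 differed by 0.28 (95% interval 0.01 to 0.56, limma FDR = 0.376), and the groups overlapped. The immediate-early list was again above in FO B (Aged), with no overlap in its sum and 2 of 14 genes called higher, Junb (log2 difference 0.84, limma FDR = 0.0118) and Ier2 (log2 difference 0.40, limma FDR = 0.0494). Its part in Klf4 was not tested.

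The other members tested gave small differences with age in FO B cells, and none was called. The log2 difference of Klf10 was 0.05 (95% interval -0.38 to 0.47), that of Klf2 was 0.06 (95% interval -0.15 to 0.27) and that of Klf3 was 0.12 (95% interval -0.08 to 0.32). Klf7 differed by -0.19 (95% interval -0.42 to 0.04) and Klf13 by -0.10 (95% interval -0.26 to 0.07). These intervals bound the differences and do not show that levels were equal. The FO B libraries of Klf13 did not overlap by age, whereas those of Klf2, Klf3, Klf7, Klf9 and Klf10 did. For Klf13 the exact two-sided permutation test gave p = 0.1, its smallest value, and limma gave FDR = 0.614. The share of all genes without overlap by age was not counted, so this separation is not read as a trait of Klf13.

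Between ABCs and FO B (Young), 4 of the 7 KLF genes tested were called higher and 2 lower, while 21.6% of all 10438 genes were called higher and 19.1% lower. This comparison uses the ABC libraries of the first one again. Klf4, at 6.65 times the mean of FO B (Young), was added to the genes called higher, with a log2 difference of 1.96 (SE 0.427, limma FDR = 0.0098). Klf10 differed by 1.71 (limma FDR = 0.000254), Klf6 by 1.23 (limma FDR = 0.00368) and Klf2 by 0.61 (limma FDR = 0.00708). Klf7 fell by 0.64 (limma FDR = 0.00158) and Klf13 by 0.50 (limma FDR = 0.00225). Klf3 missed the threshold at 0.39 (limma FDR = 0.0714), although no ABC library overlapped FO B (Young). With no filter, the calls of Klf2 (limma FDR = 0.0645), Klf4 (limma FDR = 0.0908) and Klf6 (limma FDR = 0.0505) were lost.

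The summed level of the 8 genes was 379 to 462 FPKM in the 6 FO B libraries and 534, 706 and 639.5 FPKM in ABCs, with no overlap. Klf2 supplied 49.7% to 54.7% of this sum in all 9 libraries. Klf10 supplied 1.21% to 2.03% in FO B cells and 3.17% to 4.45% in ABCs, and Klf13 5.10% to 6.60% in FO B cells and 2.46% to 3.42% in ABCs. Klf6 supplied 10.8% to 13.9% in FO B cells and 14.3%, 15.5% and 22.9% in ABCs.

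**Figure D4:**
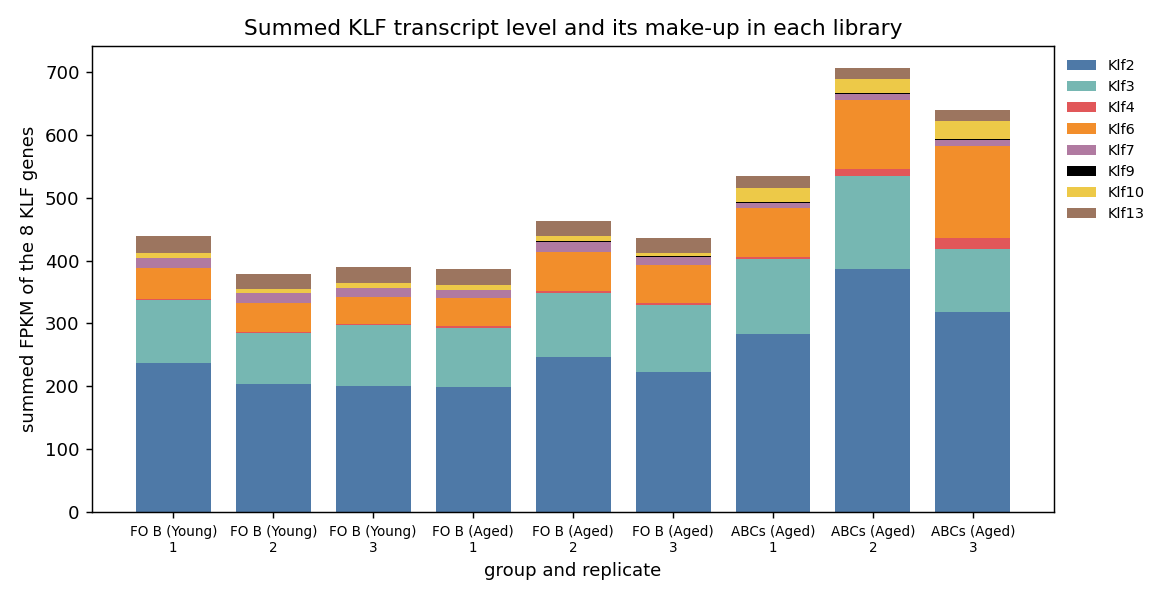
Summed FPKM of the 8 KLF genes in each library (bars), split by gene (colours), with the group and replicate on the x axis. The 3 ABC bars (534 to 706 FPKM) are above the 6 FO B bars (379 to 462 FPKM), and Klf2 makes up 49.7% to 54.7% of every bar.

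Other KLF genes were low. Of 9 further family members, 4 were tested between ABCs and FO B (Aged), and the others were under 1 FPKM on average. In ABCs 0 were higher and 1 was lower (limma), beside 19.4% and 16.5% of all genes. Klf12, which like Klf3 binds CtBP, was at 1.146, 0.299 and 0.459 FPKM in ABCs and 1.38, 1.52 and 1.95 FPKM in FO B (Aged), a log2 difference of -0.71 (limma FDR = 0.0495) that was called in 6 of its 13 alternatives. Of 9 genes of the related SP family, which bind the same GC-rich sequences, 4 were tested. Of these, 0 were higher and 2 were lower, beside the same shares of all genes. The genes called lower were Sp1 (log2 difference -0.52, limma FDR = 0.0118) and Sp2 (log2 difference -0.48, limma FDR = 0.0216). The median log2 difference was -0.24 for the KLF genes and -0.42 for the SP genes. The call of Sp2 held in 11 of 15 alternatives and was lost with no filter (limma FDR = 0.0888), without FO B (Aged) replicate 1 (0.0803) or 2 (0.0691), and without ABCs (Aged) replicate 1 (0.0644). No further gene of either family was higher at an unadjusted p under 0.05.

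Of 12 corepressors and coactivators of KLF proteins, 11 were tested, 1 was higher in ABCs and 3 were lower, beside 19.4% and 16.5% of all genes, with a median log2 difference of -0.12. Crebbp and Ep300, the acetyltransferases CBP and p300, fell by 0.52 (limma FDR = 0.00525) and 0.36 (limma FDR = 0.0134), and Wdr5, a subunit of histone methyltransferase complexes, fell by 0.47 (limma FDR = 0.0137). The call of Ep300 was lost without FO B (Aged) replicate 3 (limma FDR = 0.0551), and that of Wdr5 without replicate 1 of that group (0.051) and with no filter (0.0612). Ctbp1, the partner of Klf3 and the only gene of this list called higher, differed by 0.23 (limma FDR = 0.0216). This call held in 10 of 15 alternatives, and was lost with quantile normalization (limma FDR = 0.0667), without a trend (0.0502), without FO B (Aged) replicate 1 (0.0808) or 2 (0.062), and without ABCs (Aged) replicate 1 (0.0662). Of the Sin3 genes that partner Klf9, Klf10 and Klf13, Sin3b differed by 0.14 (limma FDR = 0.089) and Sin3a by -0.12 (limma FDR = 0.394).

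Of 12 cell cycle genes linked to Klf2 and Klf4, 9 were tested, 3 were higher in ABCs and 2 were lower, beside 19.4% and 16.5% of all genes, with a median log2 difference of -0.01. Ccne1, a cyclin of S phase entry, was at 21.3, 16.8 and 21.1 FPKM in ABCs and 6.34, 7.13 and 8.12 FPKM in FO B (Aged), a log2 difference of 1.34 (limma FDR = 0.000383). Myc, which drives growth, fell by 1.24 (limma FDR = 0.000862), and Ccnd3 rose by 0.55 (limma FDR = 0.0457), a call that held in 4 of 15 alternatives. Of 7 proliferation genes, 5 were higher in ABCs and 0 lower (limma), beside the same shares of all genes. At an unadjusted p under 0.05 the counts were 7 and 0, beside 4862 of all 10412 genes in both directions together.

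Markers of other cell types that an ABC gate could hold were read beside these results. Of 15 macrophage and monocyte genes, 7 were tested, 3 were higher in ABCs and 0 lower, beside 19.4% and 16.5% of all genes. The 15 genes summed to 291 to 355 FPKM in ABCs and 39.1 to 46.0 FPKM in FO B (Aged). Most of this sum was Adgre1 (174, 222 and 199 FPKM), and the other genes called higher were Ly6c2 (61.3 to 84.1 FPKM in ABCs, log2 difference 2.58, limma FDR = 1.91e-05) and Cd68 (6.38 to 13.1 FPKM, log2 difference 1.13, limma FDR = 0.0155). The defining genes Csf1r, Cd14, Fcgr1 and Mertk were at most at 0.831 FPKM in any ABC library. The other genes tested were not called (limma). Lyz2 was at 2.22 to 7.02 FPKM in ABCs and 2.28 to 7.06 FPKM in FO B (Aged). Cebpb was at 7.96 to 31.1 and 15.6 to 17.5 FPKM in these groups. C1qb was at 1.30 to 2.42 and 0.238 to 1.59 FPKM, and C1qc at 0.393 to 4.03 and 0.36 to 1.07 FPKM. Ccr2, which was not tested, reached 1.93 FPKM in ABCs (Aged) replicate 3. T cell genes summed to 5.20 to 39.4 FPKM in ABCs and 1.44 to 2.98 FPKM in FO B (Aged), nearly all Cd3g, with Cd3e at most at 0.0996 FPKM. NK cell genes summed to 24.4 to 38.0 FPKM in ABCs and 0.642 to 1.01 FPKM in FO B (Aged), nearly all Prf1, with Ncr1 at most at 0.0882 FPKM. Neutrophil genes summed to 0.450 to 1.60 FPKM in ABCs and 1.18 to 24.5 FPKM in FO B (Aged). Dendritic cell genes summed to 4.39 to 8.09 FPKM in ABCs and 2.93 to 5.42 FPKM in FO B (Aged), and Zbtb46 was called higher in ABCs (2.90 to 3.34 against 0.437 to 1.46 FPKM, log2 difference 1.21, limma FDR = 0.00542). Plasma cell genes summed to 976 to 1270 FPKM in ABCs and 443 to 471 FPKM in FO B (Aged), and B lineage genes to 7690 to 9900 FPKM and 8690 to 9080 FPKM. All 6 plasma cell genes were tested, and 4 were called higher in ABCs and 0 lower (limma), beside 19.4% and 16.5% of all genes. The part of these genes in the KLF differences was not tested.

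The genes most like each member over the 9 libraries were taken by Pearson's r of log2(FPKM + 1) among 8040 genes whose mean reached 5 FPKM. The 9 libraries include 3 that differ from the others by cell population, so these values are a description. Klf4 and Klf6 shared Dusp1 and Kctd10 among their nearest genes, with r of 0.98 and 0.974 for Klf4 and 0.985 and 0.99 for Klf6. Dusp1, a phosphatase that inactivates MAP kinases, is in the immediate-early list. Nearest to Klf10 were Adora2a, an adenosine receptor, with mean levels of 15.1 in ABCs and 1.68 in FO B (Aged) (r 0.99), Fnbp1 and Fam213a. Klf13 was nearest to Was, the Wiskott-Aldrich protein of the actin cytoskeleton, with mean levels of 15.5 in ABCs and 24.6 in FO B (Aged) (r 0.987), followed by Eno3 and Gripap1. Klf7 was nearest to Hnrnpdl, Mybbp1a and Fam149b, Klf2 to Rnase6, Nudt1 and Tmem192, Klf3 to Il10ra, Ddt and Akap8l, Klf4 further to Stam2, Klf6 further to Selk, and Klf9 to Agpat1, Raly and Ubqln2.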

How the data were processed

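The authors deposited 1 FPKM value per gene symbol for each of 9 libraries. Per their methods and labels, RNA was turned into cDNA with SMART-Seq HT and into Nextera libraries, and single-end reads of 101 bases were aligned to mm10. The submitters' processing notes name TopHat2 2.1.1, Bowtie2 2.2.8, SAMtools 0.1.18 and Cuffdiff 2.2.1, and the methods give other versions of some of these tools. The annotation and any scaling between libraries are not given in the sources used here, and either could shift FPKM of a gene or a library.

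From FPKM, log2(FPKM + 1) was fitted with limma 3.58.1 (R 4.3.3; lmFit, eBayes with a trend) in the 6 libraries of the groups compared, for genes whose mean in them reached 1 FPKM. P-values were adjusted by Benjamini-Hochberg over all genes tested (FDR). The step was tested on simulated data of 10288 genes, where 195 of the 200 genes changed by 1.5 on the log2 scale were called, and 7 of the unchanged genes. The changed genes were drawn from those of higher level, and no smaller change was simulated. The simulation therefore does not tell how often differences as small as those of Klf2, Klf3, Klf6, Klf7 and Klf13 would be called. Mean FPKM of single genes was compared with the exact two-sided permutation test. The value of 1 read was sought in the FPKM steps. Values of 7 of the 8 KLF genes were whole multiples within 0.05 of a read, a count that would be too low had the real step been finer, and 483 genes gave the approximate depth. Intervals of read ratios are exact (Clopper-Pearson). Other steps used Python 3.11.15, numpy 2.4.6, pandas 2.3.3, scipy 1.17.1 and matplotlib 3.10.9.

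The members and the 17 gene lists were chosen with earlier results of these data known. Named were all members, the 3 largest called changes of each list, and the 3 genes most like each member; genes outside this rule were named where a count was small or after their values were seen. Motifs for TGACG, the CArG box and MEF2 were added after the data were seen. Replicate numbers were not taken as pairs, since the labels do not tell whether they are. Same-numbered libraries of FO B (Aged) and ABCs (Aged) had correlations of deviations from group means of 0.0845, -0.019 and 0.108. Libraries of other numbers had values from -0.108 to 0.0589. With 3 libraries in each group, these values cannot decide whether the libraries were paired. Alternatives were another pseudocount, other filters, 3 scalings, no trend, all 9 libraries, a replicate block, stricter thresholds and leaving out each library; for ABCs (Aged) against FO B (Young) they were added after the data were seen. Some genes of the lists and 1 marker of the sort are not reported here by name.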

Additional observations from a re-analysis of the deposited data

How the results depend on the processing

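Between ABCs and FO B (Aged), the count of KLF genes called higher moved from 3 to 1 with no filter on low values, 1 at an FDR under 0.01 and 0 when an absolute log2 fold change above 2.3 was also asked. It lay between 1 and 4 with single libraries left out, with 1 without FO B (Aged) replicate 1. The count called lower moved from 2 to 1 with no filter, 1 at an FDR under 0.01 and 0 with the fold threshold, and lay between 1 and 2 with single libraries left out. Against FO B (Young), 4 genes called higher became 1 with no filter, and with the fold threshold 0 were called in either direction. In fits with the replicate number as a replicate block, Klf4 was called against FO B (Aged) (log2 difference 1.31, limma FDR = 0.0172), and no other KLF call changed. The cause was not tested.

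Of the log2 differences of KLF genes under the alternatives, 93 against FO B (Aged) kept their direction and side of the threshold, 8 were weaker and 4 stronger. Only between the FO B groups did a direction turn, for Klf2 without FO B (Aged) replicate 2 (-0.017, within a range of -0.017 to 0.13) and for Klf10 (-0.11 to 0.22 with single libraries left out, with -0.02 and -0.05 without FO B (Aged) replicates 1 and 2), all uncalled. Klf9 was fitted only with no filter. Klf4 had no value between the FO B groups at a mean of at least 5 FPKM.

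Over all genes, the calls between the FO B groups moved from 35 higher and 12 lower to 17 and 21 with no filter, 13 and 5 with all 9 libraries, and 22 higher without a trend, and single libraries left out gave 16 to 48 and 2 to 27. Against FO B (Aged), 1719 genes called lower became 1045 with no filter, 1054 and 1114 when FO B (Aged) replicate 1 or 3 was left out. At an FDR under 0.01 there were 1254 higher and 818 lower, and 155 and 45 with the fold threshold. Against FO B (Young), 1996 genes called lower became 1313 with no filter and 1312 without FO B (Young) replicate 1, and 2252 higher and 1996 lower became 1440 and 1025 at an FDR under 0.01 and 180 and 50 with the fold threshold. Between the FO B groups these thresholds left 15 and 2, and 2 and 0. Depth limits Klf9, which rests on few reads, and the reads of Klf10 are not known. Klf4 also has few reads, but its SD between ABC libraries was 10.1 times the counting SD. The called Klf7 rests on 279 reads in ABCs and 415 reads in FO B (Aged).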
